A study of Mus musculus with 54 samples.

Results

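Fscn1, Plpp1 and Slc10a6 are the 3 genes that passed a threshold, given below, for a lower level in tdT+ than in tdT- subdural CNS-associated macrophages (sdCAMs) of reporter mice injected with PBS. The count tables held 33280 gene symbols, of which 12708 were tested there, and other genes were lower without passing. The 3 genes were picked by that difference, so their values in that contrast are described below without a test. All 3 symbols were found in each of the 3 tables, and their levels were followed over 18 groups of 3 libraries. sdCAMs live in the leptomeninges and around blood vessels of the brain, and microglia (MG) are the macrophages of the brain parenchyma. Both were sorted from mouse brains without choroid plexuses and measured by bulk RNA-seq.

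Wild type (WT) mice and mice labelled Ccr2-/- each gave MG and sdCAMs under 3 conditions, which were untreated with a PBS injection, vehicle (CTL) followed by LPS, and BLZ945 followed by LPS. BLZ945 inhibits the CSF1 receptor and depletes these macrophages, which then return, and LPS is a bacterial endotoxin. No WT or Ccr2-/- mouse received vehicle and then PBS. In these mice, changes named below as LPS changes run from untreated with PBS to CTL with LPS, and vehicle and LPS cannot be told apart there. Injections were given 8 weeks after the end of treatment, and cells were taken 12 h later. Reporter mice, labelled Ccr2CreERT2/CreERT2:R26tdT/tdT, were all treated with BLZ945 and then injected with LPS or PBS, and gave MG, tdT+ sdCAMs and tdT- sdCAMs. Tamoxifen (2 mg per dose) was given to them at 0, 2 and 4 days after treatment, so tdTomato (tdT) marks cells that expressed Ccr2 at that time together with their progeny. The label therefore reports Ccr2 expression only around those days, and tdT- cells include any cell that Cre missed. No reporter mouse received vehicle, so every reporter sdCAM came from a depleted and refilled compartment. The labels give all reporter libraries batch 2 and all WT and Ccr2-/- libraries batch 1, without saying what a batch is. Orders and patterns over all groups therefore cross batches, and batch and mouse line cannot be told apart there.

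Fscn1 encodes fascin, a protein that packs actin filaments into the tight bundles of filopodia and dendrites; it is well known from mature dendritic cells and is also made by microglia. Plpp1 encodes a phospholipid phosphatase of the cell surface that removes the phosphate from lysophosphatidic acid and related lipids, which act as signals through G protein-coupled receptors. Slc10a6 encodes a transporter of the bile acid carrier family that takes up sulfated steroids. The 3 products share no pathway that is known from textbooks.

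Totals ran from 1705930 to 11330781 counts per library. Ccr2 lay at 16.8 to 43 CPM (counts scaled to a library total of 1e6) in untreated WT sdCAMs and at 2.46 to 5.59 CPM in those of Ccr2-/- mice. In reporter sdCAMs after PBS it lay at 236 to 288 CPM in tdT+ and at 146 to 207 CPM in tdT- cells. The 9 sdCAM markers summed to between 1767 and 22390 CPM in sdCAM libraries and to between 198 and 1298 CPM in MG libraries. Some libraries stood apart. In WT sdCAMs after CTL and LPS, in the BLZ945-treated WT mouse 12 and in tdT- sdCAMs after LPS, few transcripts took much of the library (in the first of these, the top 20 genes held 49% to 58.2% of the counts), and the scaling factor of edgeR (TMM) ran from 0.344 to 0.700. Among tdT+ sdCAMs after LPS, the library of mouse 5 held the 8 microglial markers at 81.5% (median) of what MG of that mouse had, against 3.94% and 9.76% in the other libraries of that group. The column of tdT- sdCAMs of mouse 1 and that of tdT+ sdCAMs of mouse 7, both after LPS, each carried the index number that the labels give to the other. Xist, which is transcribed from the inactive X chromosome, stood at 323 CPM in the former and at 0 CPM in the latter, whereas it was at 0 CPM in the MG of mouse 1 and at 974 CPM in the MG of mouse 7. With these columns exchanged, 0 of 24 mice held both libraries with Xist and libraries with the Y-linked Ddx3y, in place of 2 as named. Results after LPS in reporter sdCAMs are therefore given as named and exchanged. Separately, 6 WT sdCAM libraries bore an unexplained mark for an IEG correction. They were those of CTL and LPS mice 1, 4 and 6, untreated mice 9 and 14, and BLZ945 mouse 12. The mark therefore partly follows condition. Fits with it as a covariate rest on mouse 15 as the only unmarked untreated library and mouse 12 as the only marked BLZ945 library.

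The sequence before the start of a gene is where many of its regulators bind, and it is shown here for the genes that the RefSeq promoter table (GRCm38.p6) holds, which were 2 of the 3. Each run is the 250 bases before the annotated start, 5′ to 3′ on the strand of the gene, with motif matches in capitals. Fscn1 starts on the plus strand of chromosome 5, and its bases lie at chr5:142960105-142960354; Slc10a6 starts on the minus strand, and its bases lie at chr5:103629404-103629653.
Fscn1: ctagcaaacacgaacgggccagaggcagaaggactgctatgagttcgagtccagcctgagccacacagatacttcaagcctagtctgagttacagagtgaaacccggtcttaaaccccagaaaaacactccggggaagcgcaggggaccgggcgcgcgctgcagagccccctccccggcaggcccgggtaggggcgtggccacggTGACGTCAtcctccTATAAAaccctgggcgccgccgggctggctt
Slc10a6: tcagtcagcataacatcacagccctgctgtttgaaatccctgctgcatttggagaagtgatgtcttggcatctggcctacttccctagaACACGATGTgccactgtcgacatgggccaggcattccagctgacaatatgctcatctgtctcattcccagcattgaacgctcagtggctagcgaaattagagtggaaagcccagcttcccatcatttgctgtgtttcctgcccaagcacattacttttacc
The capitals in Fscn1 mark the cAMP response element TGACGTCA, from 45 to 38 bases before the start, and the TATA box TATAAA, from 31 to 26 bases before it. Of 32851 promoter windows of this length, 1.55% held the former and 12.4% the latter on either strand. In Slc10a6 they mark ACANNNTGT, the spacing of a glucocorticoid receptor palindrome, from 161 to 153 bases before the start, which 5.84% of windows held. The other motifs searched on both strands had no match in either window. These were NF-kappaB GGGNNTTTC (3.72% of windows), AP-1 TGANTCA (6.75%), PU.1 GAGGAA (23.3%), STAT TTCNNNGAA (7.02%), the GC box GGGCGG (32.7%) and the interferon-stimulated element GAAANNGAA (7.13%). GC content was 62.4% before Fscn1 and 49.2% before Slc10a6, beside a median of 52.4% over all windows. A match is a run of letters and does not show that a factor binds there.

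In PBS-injected reporter mice, the tdT+ and tdT- sdCAMs of each animal differed in all 3 genes, by construction of the choice. A gene was called when its adjusted p in the edgeR quasi-likelihood test was under 0.05 and its log2 fold change over 1 in size. In this contrast 3 of 12708 genes tested were called (0.0236%), and these are the genes described here. Fscn1 stood at 7.98, 7.74 and 6.24 CPM in the tdT+ sdCAMs of mice 174, 175 and 177 and at 82.9, 53.2 and 111 CPM in their tdT- sdCAMs. The groups did not overlap, and the mean was 11.2-fold higher in tdT- sdCAMs.

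Plpp1 had 0 counts in each tdT+ library and 60, 22 and 70 counts in the tdT- libraries, or 6.15, 2.23 and 7.62 CPM. Slc10a6 likewise had 0 counts in each tdT+ library, against 94, 310 and 193 counts in tdT- libraries, or 9.63, 31.5 and 21.0 CPM. Against a floor of 3 counts per library, which these totals put at 0.323 to 0.347 CPM, the tdT- mean was at least 16-fold higher for Plpp1 and at least 62-fold higher for Slc10a6. Both genes were therefore not detectable at this depth in tdT+ sdCAMs, and floors cover counting error only. In bulk samples, fewer cells with a transcript and less of it per cell cannot be told apart.

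The members passed a threshold that similar genes missed. The fitted log2 fold changes (tdT+ over tdT-) were -3.46 for Fscn1, and for Plpp1 (-8.09) and Slc10a6 (-10.06) they depend on how counts of 0 are treated. The next genes in the order of p, Lancl2 and Ecm1, had fitted values of -7.52 and -3.39. Lancl2, a lanthionine synthetase-like protein, stood at 0 to 0.108 CPM in tdT+ and at 5.12 to 16.7 CPM in tdT- sdCAMs. Ecm1, a secreted matrix protein, stood at 6.32 to 12.0 CPM and 40.2 to 128 CPM. Both were separated between the groups in the same direction as the members.

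MG of the same 3 mice place these values. Fscn1 stood at 454, 804 and 496 CPM in MG, so that tdT- sdCAMs carried 6.32% to 23.3% of the MG level and tdT+ sdCAMs 0.926% to 1.94% of it. The 8 microglial markers had a median of 7.84% to 14.6% of their MG level in tdT- sdCAMs and 7.82% to 11.3% in tdT+ sdCAMs, ranges that overlapped. Plpp1 stood at 70.1, 89.1 and 88.7 CPM in MG, and tdT- sdCAMs carried 2.39% to 9.31% of that. Slc10a6, in contrast, had 0 counts in all 3 MG libraries, while all 3 tdT- libraries had 94 or more.

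Conventional dendritic cell markers summed to 399 to 577 CPM in tdT- and to 72.7 to 137 CPM in tdT+ sdCAMs after PBS, mostly from Cd209a (348 to 517 CPM and 53.3 to 117 CPM), and 2 of these 6 markers, Clec9a and Itgae, were at 0 counts in every library of both groups. Mature dendritic cell markers summed to 325 to 599 CPM and 315 to 527 CPM, mostly from Cd83 (276.5 to 526.6 CPM and 261 to 467.5 CPM). Of these 9 markers, Il4i1 was at 0 counts in both groups, and Ccr7 and Ccl22 were at 0 counts in tdT+ sdCAMs. In tdT- sdCAMs, Ccr7 ran from 0 to 15.98 CPM and Ccl22 from 0 to 1.434 CPM. The part of these cells in the difference was not tested.

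**Figure D1:**
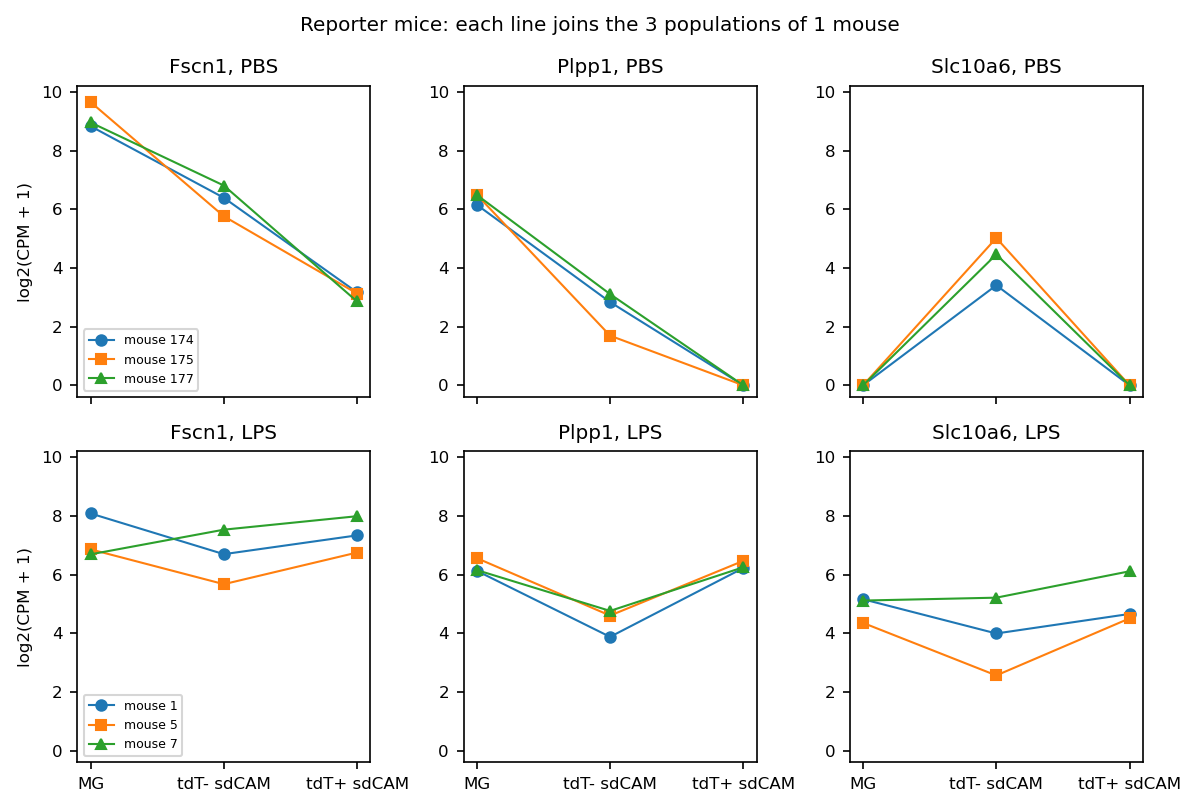
Levels of Fscn1, Plpp1 and Slc10a6 as log2(CPM + 1) (vertical axes) in MG, tdT- and tdT+ sdCAMs of the reporter mice (horizontal axes), with a line for each mouse, after PBS (top row) and after LPS (bottom row), columns as named. After PBS every line falls from tdT- to tdT+ sdCAMs, to 0 counts for Plpp1 and Slc10a6, whereas after LPS all tdT+ libraries have counts of all 3 genes.

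After LPS, the 3 genes were present in every tdT+ library. Fscn1 stood at 161, 107 and 253 CPM in the tdT+ sdCAMs of mice 1, 5 and 7, Plpp1 at 73.8, 87.6 and 75.1 CPM, and Slc10a6 at 24.3, 21.8 and 68.2 CPM. None of these groups overlapped the PBS libraries of the same population. Relative to them, the mean of Fscn1 was 23.7-fold higher, that of Plpp1 at least 236-fold higher and that of Slc10a6 at least 114-fold higher, on the CPM scale. With the columns exchanged, these values were 16.9-fold, at least 175-fold and at least 60.8-fold. Because the PBS groups chose the members as low in tdT+ sdCAMs, the folds and the lack of overlap carry no test. The share of all genes without overlap was not counted.

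In tdT- sdCAMs of mice 1, 5 and 7, Fscn1 stood at 103, 50.0 and 184 CPM after LPS, overlapping the PBS libraries. Slc10a6 stood at 14.9, 4.91 and 36.1 CPM, also overlapping. Plpp1 stood at 13.7, 23.3 and 26.1 CPM, above every PBS library, with a mean 3.95-fold higher in CPM and 7.11-fold higher in TMM-scaled CPM. With the columns exchanged, the 13.7 CPM of Plpp1 in tdT- and its 75.1 CPM in tdT+ sdCAMs change places, and every LPS library of both populations still lies above the PBS libraries of its own in Plpp1. The mean of Plpp1 in tdT- sdCAMs is then 7.78-fold higher in CPM, while Fscn1 is 1.97-fold its PBS mean in place of 1.36-fold and Slc10a6 1.76-fold in place of 0.901-fold, with libraries that overlap either way for both.

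The libraries after LPS took no part in the choice and allow a test of tdT+ against tdT- sdCAMs. edgeR called none of the 3 genes, whereas 6.32% of the 10513 genes tested passed, 37 with higher and 627 with lower counts in tdT+ sdCAMs. Without the tdT+ library of mouse 1, 5 or 7, these 664 calls became 402, 385 and 261. The log2 difference (tdT+ over tdT-) was -0.42 ± 0.47 (SE, adjusted p = 0.667) for Fscn1, 0.71 ± 0.46 (adjusted p = 0.430) for Plpp1 and 0.02 ± 0.71 (adjusted p = 0.993) for Slc10a6. The 95% intervals ran from -1.45 to 0.61, from -0.30 to 1.72 and from -1.54 to 1.59 in the same order, so differences of more than 1 on the log2 scale stayed within all 3.

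This comparison rests on the scaling and on the columns in question. On library totals without TMM factors, the median of all genes moved up by 1.15, the calls became 2293 higher and 383 lower, and Plpp1 passed the call at 1.91 (adjusted p = 0.0173) while Fscn1 turned to 0.64. With the columns exchanged, the log2 differences were -0.62, -0.01 and -0.96, and edgeR called 0 genes of any kind (269 at an unadjusted p under 0.05). Without the tdT+ library of mouse 5, they were -0.18, 0.64 and 0.29. As named, 2 of 9 sdCAM markers were called lower and 0 higher in tdT+ sdCAMs, with a median log2 difference of 0.09. Pf4 lay at 34.2 to 107.8 CPM in tdT+ and 1049 to 1341 CPM in tdT- sdCAMs. Ms4a7 lay at 67.31 to 352.7 and 713.3 to 759.8 CPM in the same order. Stab1 ran the other way, at 591.7 to 1484 and 206.4 to 367.7 CPM. With columns as named, mature dendritic cell markers summed to 2531 to 10000 CPM in tdT- and to 550 to 1085 CPM in tdT+ sdCAMs after LPS. The chemokine gene Ccl17 led them (1990 to 9109 CPM and 22.5 to 107 CPM). None of the 9 markers was at 0 counts in all libraries of either group as named. With the columns exchanged, each group takes a library from the range of the other, so the groups overlap in the sum and in Ccl17. The part of these markers in the values of Fscn1 was not tested.

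Across the 18 groups, Fscn1 was highest in resting MG. In TMM-scaled CPM, on which group means are ordered, the untreated and PBS groups of MG led, at 610 ± 67.9 (SD, n = 3 for all groups) in Ccr2-/-, 559 ± 225 in reporter and 466 ± 68.4 in WT mice. All 3 groups overlapped each other, and WT MG then stood apart from the next group, BLZ945-treated Ccr2-/- MG after LPS at 265 ± 17.3. Below it all neighbours overlapped and sdCAM and MG groups after LPS were mixed, with reporter MG after LPS (135 ± 90.1) in place 13 of 18, down to WT sdCAMs after CTL and LPS at 75.5 ± 22.1. The tdT+ sdCAMs after PBS came last at 7.16 ± 0.888, apart from all others. Of 17 neighbouring pairs, 2 were separate.

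Plpp1 was highest in Ccr2-/- sdCAMs after LPS, at 174 ± 52.4 with CTL and 126 ± 33.9 with BLZ945. Its MG groups ranged from 78.1 ± 14.7 (reporter, PBS) to 19.3 ± 5.21 (WT, BLZ945 and LPS), and all neighbours down to the latter overlapped. A gap followed, below which lay the resting sdCAMs, at 6.79 ± 4.19 in untreated Ccr2-/-, 5.08 ± 2.64 in tdT- and 4.70 ± 4.66 in untreated WT sdCAMs. Those 3 groups overlapped, and tdT+ sdCAMs after PBS stood alone at 0 counts.

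Slc10a6 was also highest in Ccr2-/- sdCAMs after LPS, at 82.0 ± 17.6 with BLZ945 and 80.02 ± 27.6 with CTL, which overlapped each other and were separate from WT sdCAMs after CTL and LPS (43.6 ± 9.09). The latter group held place 3 of 18 only on this scale, and place 12 in plain CPM (17.1 ± 2.44). Next came 10 groups with overlapping neighbours, from tdT+ sdCAMs after LPS at 31.7 ± 22.8 to BLZ945-treated Ccr2-/- MG after LPS at 13 ± 2.10, among them tdT- sdCAMs after PBS at 19.9 ± 10.8. Untreated WT sdCAMs stood apart at 4.05 ± 2.62. The lowest groups were untreated Ccr2-/- MG at 0.352 ± 0.449, untreated WT MG at 0.286 ± 0.248, and reporter MG and tdT+ sdCAMs after PBS, both at 0 counts.

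**Figure D2:**
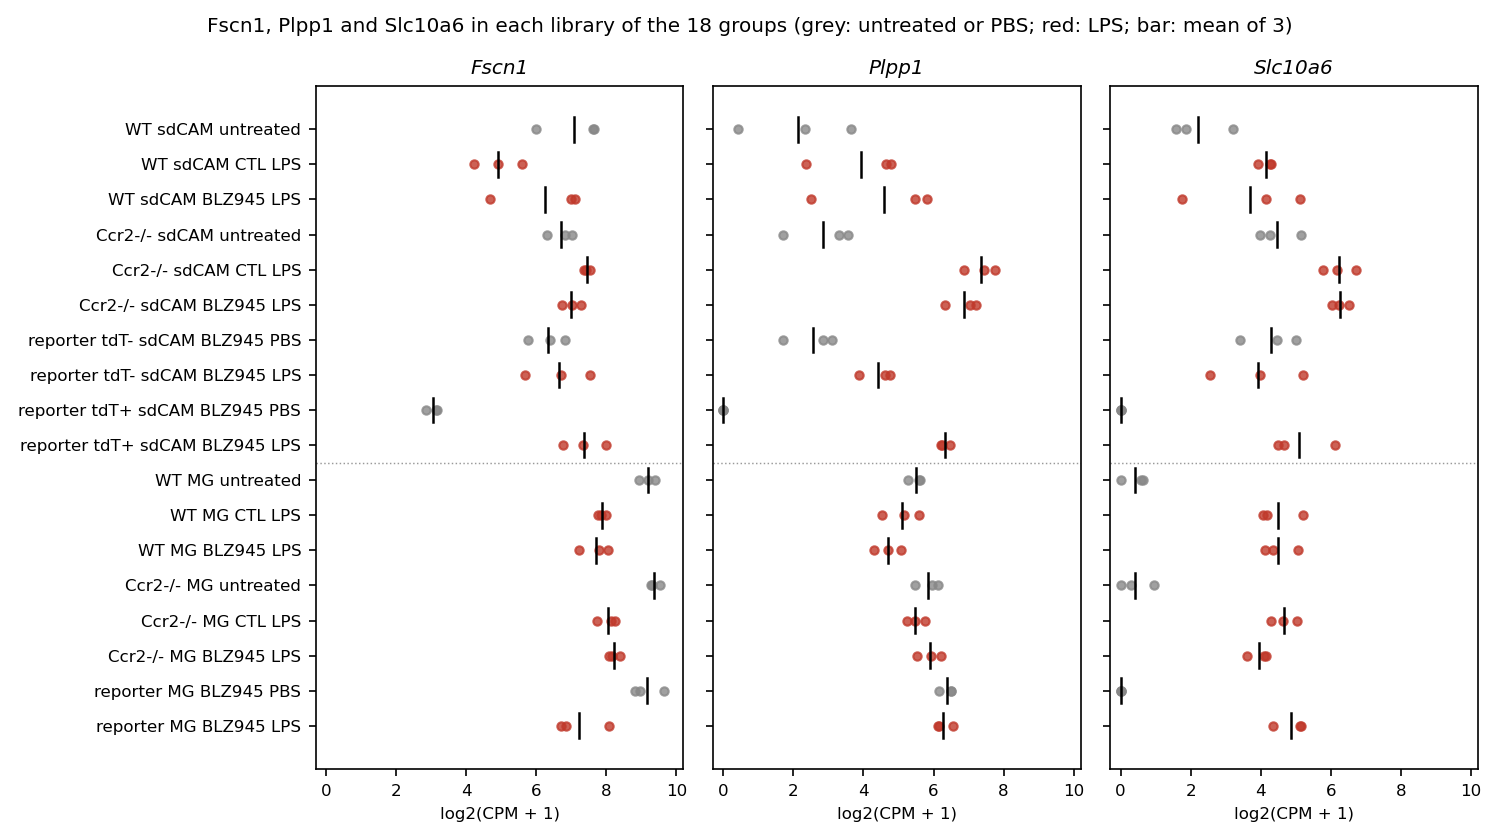
Levels of Fscn1, Plpp1 and Slc10a6 as log2(CPM + 1) (horizontal axes) in each library of the 18 groups (rows; sdCAMs above the dotted line, MG below), with grey points for untreated or PBS libraries, red points for LPS libraries and a bar at the mean of 3. Fscn1 is highest in grey MG rows, Slc10a6 is near 0 in grey MG rows and clear of 0 in every red one, and reporter tdT+ sdCAMs after PBS are lowest or at 0 counts for every gene.

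In untreated WT and Ccr2-/- mice, none of whose libraries chose the members, sdCAMs differed from MG in all 3 genes. Fscn1 stood at 62.3, 194 and 201 CPM in the WT sdCAMs of mice 9, 14 and 15 and at 585, 667 and 491 CPM in their MG. Plpp1 stood at 0.328, 4.01 and 11.4 CPM (1, 10 and 22 counts) in the former and at 47.9, 47 and 37.8 CPM in the latter. Slc10a6 ran the other way, at 2.62, 2.00 and 8.29 CPM in sdCAMs and at 0, 0.509 and 0.556 CPM in MG. None of these groups overlapped, and the share of all genes separated in this way was not counted.

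The log2 difference (sdCAM over MG) in WT mice was -1.65 ± 0.37 (SE, adjusted p = 0.00613) for Fscn1, -2.94 ± 0.75 (adjusted p = 0.0125) for Plpp1 and 3.70 ± 0.80 (adjusted p = 0.00486) for Slc10a6. All 3 were called, beside 17.1% of all genes tested. For the microglial markers, untreated WT sdCAMs had medians of 21.8% to 38.3% of MG. With the IEG mark as a covariate, Plpp1 fell short of the call (-2.06, adjusted p = 0.0844).

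Ccr2-/- mice showed the same directions. There Fscn1 stood at 111, 77.4 and 128 CPM in untreated sdCAMs and at 617, 745 and 632 CPM in MG, in the order of mice 1m, 3m and 5f. Plpp1 stood at 2.24, 10.7 and 8.76 CPM and at 68.6, 43.8 and 60.6 CPM. Slc10a6 stood at 18.2, 14.8 and 34.5 CPM in sdCAMs, whereas MG had 2, 10 and 0 counts. The log2 differences were -2.64 ± 0.19 (adjusted p = 5.13e-09), -2.97 ± 0.41 (adjusted p = 1.86e-05) and 5.73 ± 0.56 (adjusted p = 2.66e-07) in the order Fscn1, Plpp1 and Slc10a6, all called, beside 15.0% of all genes. Microglial markers there lay at a median of 7.23% to 11.3% of MG.

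Between genotypes, untreated sdCAMs differed in Slc10a6, which was higher in Ccr2-/- than in WT mice by 2.42 ± 0.53 on the log2 scale (adjusted p = 0.0103), beside 9.50% of genes (494 up and 766 down in Ccr2-/- mice, or 59 and 510 on library totals). The 3 Ccr2-/- libraries lay above every WT library, and the share of all genes separated in this way was not counted. The call was lost on library totals (2.42, adjusted p = 0.0504), with the IEG mark as a covariate (1.60, adjusted p = 0.0781) and without Ccr2-/- mouse 5f (2.01, adjusted p = 0.0575). Fscn1 differed by -0.54 ± 0.36 (adjusted p = 0.351) and Plpp1 by 0.61 ± 0.76 (adjusted p = 0.651). In the same comparison 3 of 8 microglial markers were lower in Ccr2-/- sdCAMs (median log2 difference -1.16), 2 of 9 sdCAM markers were higher (median 0.95), and 1 fibroblast marker of 8 and 1 neutrophil marker of 3 tested were lower. Library totals were 1929070 to 3049028 in WT and 8124128 to 8929948 in Ccr2-/- sdCAMs. The part of these differences in Slc10a6 was not tested. The labels give both genotypes 1 batch, but they came in separate tables and the methods name a batch correction over them, so a batch between the tables and the genotype cannot be told apart.

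Slc10a6 rose with LPS in every untreated-to-LPS comparison that could be tested, and most steeply in MG. In WT MG, 0, 4 and 5 counts in untreated mice became 145, 298 and 147 counts after CTL and LPS, or 15.7, 36 and 17.2 CPM. The log2 change was 5.81 ± 0.62 (adjusted p = 4.54e-05), beside 16.7% of genes called. In Ccr2-/- MG, 2, 10 and 0 counts became 212, 315 and 241 counts, or 18.7, 31.7 and 24.1 CPM, a change of 5.80 ± 0.58 (adjusted p = 4.85e-06), beside 19.4% of genes. In reporter MG, 0 counts in all PBS libraries became 297, 152 and 271 counts (34.8, 19.4 and 33.7 CPM), at least 96.5-fold higher. That rise was called (adjusted p = 0.0402), beside 1.08% of genes (72 higher and 46 lower, or 80 and 31 on library totals, where the median of all genes moved by 0.26). The call was kept without PBS mouse 175 and lost without any other of the 6 libraries, with adjusted p from 0.107 to 0.258.

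sdCAMs raised Slc10a6 from a higher start. In WT sdCAMs it went from 2.00 to 8.29 CPM to 18.6, 14.2 and 18.4 CPM in mice 1, 4 and 6, which did not overlap. The log2 change was 3.57 ± 0.74 (adjusted p = 0.0199), beside 6.32% of genes called, and those 664 calls fell to between 137 and 293 without any 1 of the 6 libraries. It fell short of the call without any library but untreated mouse 15 (3.28 to 3.66, adjusted p from 0.0503 to 0.0850), and on library totals (1.99, adjusted p = 0.156), where the median of all genes moved by -1.47 and calls went from 389 higher and 275 lower to 311 and 2575. In Ccr2-/- sdCAMs it went from 14.8 to 34.5 CPM to 53.5, 72 and 105 CPM in mice V1m, V2m and V4f, again without overlap. The change was 1.92 ± 0.34 (adjusted p = 0.00108), beside 21.5% of genes, and the median of all genes moved by -0.15 on library totals. For both genotypes, the share of all genes without overlap was not counted.

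Plpp1 rose with LPS in Ccr2-/- sdCAMs. In Ccr2-/- sdCAMs it rose from 2.24, 10.7 and 8.76 CPM to 116, 214 and 173 CPM, a log2 change of 4.69 ± 0.48 (adjusted p = 1.20e-05). That change was called, beside 21.5% of all genes tested. Every LPS library lay above every untreated one, and the share of all genes separated in this way was not counted. In WT sdCAMs it went from 0.328, 4.01 and 11.4 CPM to 4.16, 26.8 and 24.0 CPM, groups that overlapped in CPM and were apart in TMM-scaled CPM. The change of 3.42 ± 0.98 did not pass (adjusted p = 0.0610), but did with DESeq2 (adjusted p = 0.00633), with no filter on low counts (adjusted p = 0.000623) and with the IEG mark as a covariate (4.32, adjusted p = 0.0106).

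MG values of Plpp1 overlapped between conditions. WT MG had 37.8 to 47.9 CPM untreated and 21.9 to 47.2 CPM after CTL and LPS, with a log2 difference of -0.44 ± 0.28 (adjusted p = 0.253). The difference was -0.45 ± 0.24 (adjusted p = 0.163) in Ccr2-/- MG and -0.38 ± 0.38 (adjusted p = 0.775) in reporter MG. The 95% intervals of all 3 reached no higher than 0.50.

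Fscn1 went down with LPS in MG. In WT MG it fell from 585, 667 and 491 CPM to 251, 231 and 216 CPM, a log2 change of -1.41 ± 0.20 (adjusted p = 0.000372). In Ccr2-/- MG it fell from 617, 745 and 632 CPM to 281, 210 and 301 CPM, a change of -1.40 ± 0.16 (adjusted p = 1.28e-05). These changes were called beside 16.7% of all genes tested in WT and 19.4% in Ccr2-/- MG. Neither pair of groups overlapped, and the share of all genes separated in this way was not counted. Reporter MG had 454, 804 and 496 CPM after PBS and 270, 115 and 102 CPM after LPS, also apart, but the change of -2.10 ± 0.57 did not pass (adjusted p = 0.125), although it did with DESeq2 (-2.05, adjusted p = 0.0232).

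In sdCAMs the values of Fscn1 differed in sign between the genotypes. Ccr2-/- sdCAMs had 111, 77.4 and 128 CPM untreated and 164, 170 and 186 CPM after CTL and LPS, a change of 0.87 ± 0.20 (adjusted p = 0.00619) that stayed under the fold limit of a call, except without mouse 5f (1.05). WT sdCAMs had 62.3 to 201 CPM untreated and 17.7, 28.9 and 46.7 CPM after CTL and LPS, groups that were apart in CPM and overlapped in TMM-scaled CPM. Their change was -0.81 ± 0.47 (adjusted p = 0.315), and -2.30 (adjusted p = 0.0237) on library totals. The difference between the genotypes, tested after these values were seen, was 1.88 ± 0.52 (adjusted p = 0.211), and 3.01 on library totals (adjusted p = 0.0665).

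Whether sdCAMs and MG respond differently to LPS was tested as an interaction. In Ccr2-/- mice the response of sdCAMs exceeded that of MG by 2.30 ± 0.26 for Fscn1 (adjusted p = 1.06e-05) and by 5.17 ± 0.56 for Plpp1 (adjusted p = 6.56e-06), and it was smaller by a log2 difference of -3.83 ± 0.69 for Slc10a6 (adjusted p = 0.00122). All 3 were called, beside 6.88% of genes (371 up and 516 down, or 254 and 856 on library totals, where the median of all genes moved by -0.25). In WT mice none was called, beside 1.32% of genes (57 higher and 117 lower, or 95 and 2613 on library totals). The differences had the same signs, at 0.51 ± 0.51 (adjusted p = 0.645), 3.76 ± 1.00 (adjusted p = 0.0704) and -2.27 ± 0.99 (adjusted p = 0.233). Plpp1 passed there with DESeq2 (adjusted p = 0.00386), and also without sdCAMs of CTL mouse 1 (adjusted p = 0.0328) or of untreated mouse 15 (adjusted p = 0.0385).

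**Figure D3:**
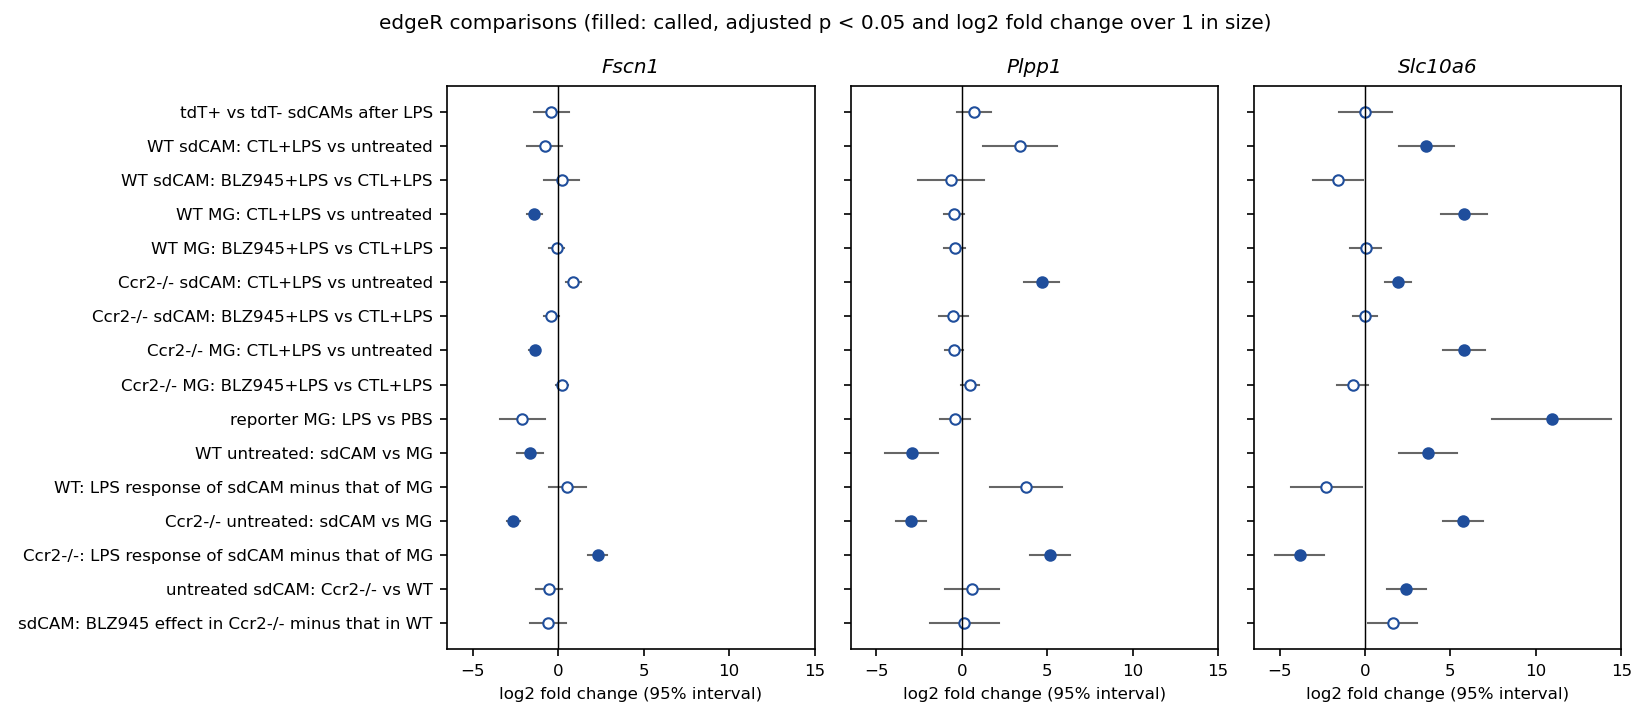
Log2 fold changes of Fscn1, Plpp1 and Slc10a6 with 95% intervals (horizontal axes) in the 16 tested comparisons (rows), filled where called by edgeR. Filled points for Slc10a6 lie right of 0 in each comparison of LPS with untreated or PBS mice, those for Fscn1 lie left of 0 in WT and Ccr2-/- MG, and no BLZ945 row has a filled point.

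Earlier depletion with BLZ945 was compared with CTL among mice that all received LPS. No member was called in any cell type or genotype. In WT sdCAMs, Fscn1 stood at 126, 136 and 24.6 CPM in mice 8, 11 and 12, Plpp1 at 43.6, 55.1 and 4.65 CPM and Slc10a6 at 16.8, 34.0 and 2.39 CPM. Mouse 12 was the lowest in each gene. The log2 differences from CTL were 0.21 ± 0.47 (adjusted p = 0.917), -0.63 ± 0.88 (adjusted p = 0.852) and -1.56 ± 0.67 (adjusted p = 0.689). edgeR called 0% of genes there (758 at an unadjusted p under 0.05, and 5 calls with DESeq2), while on library totals it called 176 higher and 3 lower, and without mouse 12 it called 788.

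In Ccr2-/- sdCAMs the differences were -0.42 ± 0.20 (adjusted p = 0.602) for Fscn1, -0.49 ± 0.40 (adjusted p = 0.786) for Plpp1 and 0.01 ± 0.33 (adjusted p = 0.996) for Slc10a6, beside 0% of genes called by edgeR (998 at an unadjusted p under 0.05, and 85 calls with DESeq2). The BLZ945 effects of the genotypes differed by -0.60 ± 0.51 (adjusted p = 0.691), 0.14 ± 0.96 (adjusted p = 0.981) and 1.61 ± 0.68 (adjusted p = 0.470), again beside 0% of genes (1332 at an unadjusted p under 0.05, and 55 calls with DESeq2; 1 higher and 259 lower on library totals; 1329 calls without WT mouse 12 and 1 without WT CTL mouse 1). In MG the differences of the members ran from -0.41 to 0.03 in WT mice (0.0763% of genes called) and from -0.72 to 0.48 in Ccr2-/- mice (0.0173%), with adjusted p from 0.767 to 0.996.

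Because Fscn1 and Plpp1 were higher in resting MG than in resting sdCAMs, the microglial markers of sdCAM libraries are set beside them, and their part in the levels was not tested. In untreated WT sdCAMs, the library with the fewest microglial markers (mouse 9, at 21.8% of MG) had 15.9% of the MG level of Fscn1. Its Plpp1 was at 1.02% of MG, from 1 count, which is below the floor of 3 counts. The library with the most (mouse 15, at 38.3%) had 42.8% for Fscn1 and 31.5% for Plpp1, the latter from 22 counts. In untreated Ccr2-/- sdCAMs these were 18.3% and 3.33% (mouse 1m, at 7.23%) and 20.7% and 14.8% (mouse 5f, at 11.3%). In tdT- sdCAMs after PBS they ran the other way, at 23.3% and 8.94% (mouse 177, at 7.84%) and at 6.32% and 2.39% (mouse 175, at 14.6%). Fscn1 in tdT+ sdCAMs after PBS also did, at 1.94% (mouse 174, at 7.82%) and 0.926% (mouse 175, at 11.3%). These percents all depend on the MG library of the same mouse. In MG, Fscn1 was at 804 CPM in mouse 175, against 454 and 496 CPM in mice 174 and 177. The highest marker of mouse 175 was at 394% of MG in tdT- and 349% in tdT+ sdCAMs. In CPM, microglial markers summed to 5164 to 5295 in tdT- sdCAMs, and tdT+ Fscn1 was 7.98 (mouse 174) and 7.74 (mouse 175). After LPS, Ccr2-/- sdCAMs of CTL mice carried microglial markers at 7.28% to 12.0% of MG, and Fscn1 at 68.8% to 99.1% and Plpp1 at 374% to 605% of MG. Slc10a6 in the same libraries was at 278% to 524% of MG.

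**Figure D4:**
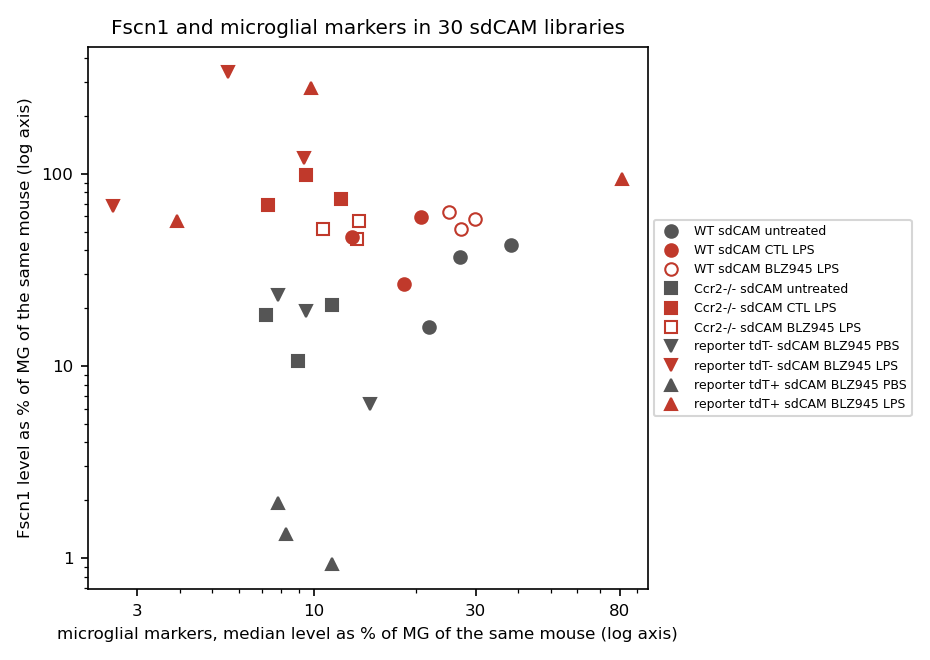
Fscn1 level (vertical axis, log scale) against the median level of 8 microglial markers (horizontal axis, log scale) in the 30 sdCAM libraries, both as a percent of the MG of the same mouse, with a symbol for each group. The reporter libraries after PBS share a range of marker levels on the horizontal axis, with tdT+ sdCAMs at 0.926% to 1.94% of MG for Fscn1 and tdT- sdCAMs at 6.32% to 23.3%.

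The pattern of each gene over the 16 groups that did not choose it was compared with that of 10335 genes, on group means of log2(CPM + 1). Closest to Fscn1 were Asb2, a ubiquitin ligase adaptor (Pearson r = 0.928), Ywhah, a 14-3-3 protein (0.925), and Zc4h2, a zinc finger protein (0.924). Closest to Plpp1 were Ncf4, a subunit of the phagocyte NADPH oxidase (0.904), the small GTPase Rab20 (0.885) and Vasp, an actin regulator (0.870). Closest to Slc10a6 were Ehd1, an endocytic recycling protein (0.958), the scavenger receptor Msr1 (0.944) and Milr1, an inhibitory immunoglobulin-like receptor (0.944). MG and sdCAM groups share mice, and the groups cross the batch labels, so these are descriptions.

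The PBS reporter sdCAMs chose the members, so the levels of the nearest genes there are a description. Asb2 stood at 24.3 ± 14.4 CPM in tdT+ and at 13.7 ± 3.66 CPM in tdT- sdCAMs after PBS, Ncf4 at 101 ± 19.2 and 80.1 ± 18.3 CPM, and Ehd1 at 153 ± 10.3 and 208 ± 11.8 CPM. Over all 18 groups, 0 of the 3 nearest genes of Fscn1, 1 of Plpp1 and 0 of Slc10a6 stayed the same. Among the members, r over the 16 groups was 0.430 for Fscn1 and Plpp1, -0.589 for Fscn1 and Slc10a6 and 0.169 for Plpp1 and Slc10a6. In the same order it was 0.385, 0.304 and 0.884 over the 8 sdCAM groups left and 0.267, -0.951 and -0.389 over the 8 MG groups.

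The families around the members were described from lists chosen with earlier results known. Of 24 genes of actin bundling and filopodia, 20 were tested in Ccr2-/- sdCAMs, where LPS raised 6 and lowered 2 (40% called, beside 21.5% of all genes). Marcksl1, a membrane-linked actin and calmodulin binder, rose by 2.31 ± 0.15 on the log2 scale (adjusted p = 3.00e-07), Vasp by 1.76 ± 0.16 (adjusted p = 4.59e-06) and the formin Fmnl2 by 3.63 ± 0.37 (adjusted p = 1.25e-05). In WT sdCAMs 1 of 18 was called (5.56%, beside 6.32% of all genes), Marcksl1 at 1.84 ± 0.46 (adjusted p = 0.0406). In MG, 3 rose and 3 fell of 19 in WT (31.6%, beside 16.7% of all genes) and 4 rose and 5 fell of 20 in Ccr2-/- mice (45%, beside 19.4%). Marcks and Evl fell in both, by -1.61 ± 0.17 and -1.26 ± 0.14 in WT mice and by -1.48 ± 0.15 and -1.40 ± 0.15 in Ccr2-/- mice. Reporter MG had 1 call of 17 (Marcksl1, 3.24 ± 0.45; 5.88%, beside 1.08% of all genes) and tdT+ against tdT- sdCAMs after LPS 0 of 18 (beside 6.32%). The median log2 change of the list lay between -0.14 and 0.20 in these comparisons, beside -0.08 to 0.03 over all genes.

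Of 30 genes of lipid phosphate and lysophospholipid signalling, LPS raised 3 and lowered 6 of 23 in Ccr2-/- sdCAMs (39.1% called, beside 21.5% of all genes). S1pr1, a receptor of sphingosine 1-phosphate, fell by -4.26 ± 0.46 (adjusted p = 2.11e-05), Lpar6, a receptor of lysophosphatidic acid, by -2.14 ± 0.21 (adjusted p = 8.26e-06), and the phosphatase gene Sgpp1 by -1.83 ± 0.20 (adjusted p = 2.03e-05). In WT sdCAMs 1 rose and 1 fell of 21 (9.52%, beside 6.32%), Sphk1, a sphingosine kinase, with a fitted change of 10.52 ± 1.11 (adjusted p = 0.00213) that depends on how counts of 0 are treated, and S1pr1 with -4.47 ± 0.78 (adjusted p = 0.0111). MG lowered 5 of 22 genes and raised 1 in WT (27.3%, beside 16.7%) and lowered 6 of 21 in Ccr2-/- mice (28.6%, beside 19.4%), among them S1pr1 (-3.33 ± 0.51 and -4.03 ± 0.44) and Lpar5 (-1.94 ± 0.37 and -2.08 ± 0.33). None was called in reporter MG (19 tested, beside 1.08% of all genes) or between tdT+ and tdT- sdCAMs after LPS (20 tested, beside 6.32%). List medians ran from -0.88 to 0.04, beside -0.08 to 0.03 over all genes.

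Of 25 genes of the bile acid carrier family and of steroid sulfate handling, LPS raised 1 and lowered 4 of 16 in Ccr2-/- sdCAMs (31.2% called, beside 21.5% of all genes). The carrier genes Slco2b1 and Slco3a1 went opposite ways, at -3.29 ± 0.30 (adjusted p = 4.59e-06) and 5.30 ± 0.59 (adjusted p = 2.64e-05). Slco2b1 was also the only call of 15 in WT sdCAMs (-2.26 ± 0.56, adjusted p = 0.0384; 6.67%, beside 6.32%). In MG the calls were 2 higher and 1 lower of 15 in WT (20%, beside 16.7%) and 2 higher of 16 in Ccr2-/- mice (12.5%, beside 19.4%), with the steroid dehydrogenase gene Hsd17b12 (1.54 ± 0.21 and 1.68 ± 0.15) and the sulfotransferase gene Sult1a1 (1.47 ± 0.31 and 1.44 ± 0.16) in both. Sts, the steroid sulfatase gene, fell in WT MG (-1.49 ± 0.52, adjusted p = 0.0479). Reporter MG had 0 calls of 14 (beside 1.08%), and 1 of 15 genes, Hsd17b11, was lower in tdT+ than in tdT- sdCAMs after LPS (-2.00 ± 0.43, adjusted p = 0.0195; 6.67%, beside 6.32%), a comparison with 0 calls once the columns were exchanged. List medians ran from -0.55 to 0.21, beside -0.08 to 0.03 over all genes.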

How the data were processed

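Per the labels and the methods, total RNA of sorted cells was amplified with a SMARTer Ultra Low Input kit, Nextera XT libraries were read as single reads, aligned with STAR 2.7.11a and counted per gene with featureCounts 2.0.8. The authors deposited whole-number counts per gene symbol without normalization, in 3 tables, whose columns all matched a library (0 not used). The methods name a ComBat-seq batch correction over the WT and Ccr2-/- data, and whether the deposited counts hold it is not stated. Mixed genome builds were named and no strand setting was stated, so antisense overlaps are uncertain. There were no molecular identifiers, so amplified duplicates stay in the counts. Depth is given with the samples.

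The members and lists were chosen with earlier results of these data known. Each comparison was a two-sided quasi-likelihood test in edgeR 4.0.16 (R 4.3.3) after filterByExpr and TMM scaling, with Benjamini-Hochberg adjustment over all genes tested. Only 2 comparisons were tried on simulated data, tdT+ against tdT- sdCAMs after LPS and LPS in Ccr2-/- sdCAMs. The simulated counts spread less between libraries than the real ones, so they do not show how the tests perform at the spread of these data. Fits used the 9 libraries of a cell type and genotype, 18 where cell types or genotypes were compared, and 6 for reporter MG and for reporter sdCAMs after LPS. Library values are CPM on library totals, and group means are TMM-scaled CPM ± SD. Named genes were the 3 members, the next 2 genes in the contrast that chose them, the 3 genes most like each member (group mean of at least 10 CPM, no predicted genes), up to 3 calls per list, markers and Ccr2. Alternatives were DESeq2 1.42.0, its size factors, no low-count filter, each library left out, the IEG mark, the exchanged columns, a fit of 12 libraries and the mouse as replicate block, with library totals and the LPS response between genotypes added after seeing the data. Populations of 1 mouse share an animal, which pairs the samples; correlations of their deviations ran from -0.019 to 0.186. For Ccr2-/- mice given LPS, sample titles and cell type labels disagreed, and the cell type label and library name were used.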

Additional observations from a re-analysis of the deposited data

Results flagged for a closer look

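In Ccr2-/- mice the LPS response of sdCAMs differed from that of MG for all 3 genes, by an interaction term in edgeR. The log2 response of sdCAMs minus that of MG was 2.30 for Fscn1 (adjusted p = 1.06e-05), 5.17 for Plpp1 (adjusted p = 6.56e-06) and -3.83 for Slc10a6 (adjusted p = 0.00122). These calls stood beside 6.88% of all genes tested. Fscn1 and Plpp1 were higher in every sdCAM library after CTL and LPS than in every untreated one, whereas in MG Fscn1 was lower in every LPS library and Plpp1 overlapped. Slc10a6 was higher after LPS in every library of both cell types. The share of all genes separated in this way was not counted. In WT mice the same edgeR interaction called none of the 3 genes, beside 1.32% of all genes tested. The adjusted p there was 0.645 for Fscn1, 0.0704 for Plpp1 and 0.233 for Slc10a6.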

How the results depend on the processing

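Of 48 tested values, DESeq2 size factors kept 47 on their side of the threshold and in direction, no low-count filter 45, DESeq2 44 and library totals 35; 9 of 54 group means moved by over 1 SD between CPM and TMM-scaled CPM. The cause of the changes was not tested. Between tdT+ and tdT- sdCAMs after LPS, Slc10a6 (0.02) turned to -0.019 with DESeq2 and to -0.021 with its size factors, to -0.96 with the columns exchanged, to -0.98 when these were fitted with all 12 libraries and to -0.69 with the mouse as block; Plpp1 (0.71) turned to -0.0078 exchanged and to -0.13 with the block, and on library totals Plpp1 was 1.91 and Fscn1 0.64. For LPS in WT sdCAMs, Plpp1 passed with DESeq2 (3.45), no filter (3.41) and the IEG mark (4.32), and on library totals Fscn1 passed (-2.30) and Slc10a6 did not (1.99). Reporter MG passed for Fscn1 with DESeq2 (-2.05). Plpp1 between WT sdCAMs and MG fell short with the IEG mark (-2.06). The WT difference in response passed for Plpp1 with DESeq2 (3.96), no filter (3.73) and the IEG mark (4.64), and on library totals Slc10a6 passed (-3.90) and Fscn1 turned (-0.97). Between genotypes, Slc10a6 fell short on library totals (2.42) and with the IEG mark (1.60), where Plpp1 turned (-0.27). Among BLZ945 results, library totals turned Plpp1 (0.92) and Slc10a6 (0.047) in WT sdCAMs, Slc10a6 in WT MG (-0.013) and Ccr2-/- sdCAMs (-0.0059), and Plpp1 (-1.40) and Slc10a6 (-0.022) in the genotype difference, where no filter gave -0.011 for Plpp1; the IEG mark turned Fscn1 in WT sdCAMs (-0.092). Library totals moved the median of all genes by 1.34 (BLZ945, WT sdCAMs), -0.30 (WT sdCAMs against MG), -1.47 (WT difference in response) and -1.33 (genotype difference of BLZ945).

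Leaving out 1 library at a time, Fscn1 ran from -0.79 to -0.08, Plpp1 from 0.38 to 0.97 and Slc10a6 from -0.69 to 0.72 between tdT+ and tdT- sdCAMs after LPS. Slc10a6 ran from 3.28 to 4.14 for LPS in WT sdCAMs, from 10.76 to 11.18 in reporter MG and from 2.01 to 3.00 between genotypes. Fscn1 ran from 0.69 to 1.05 for LPS in Ccr2-/- sdCAMs, and Plpp1 from 3.20 to 4.75 for the WT difference in response, from 0.15 to 1.60 between genotypes and from -1.09 to -0.11 for BLZ945 in WT sdCAMs. Counts of all genes called ran in edgeR from 261 to 745 between tdT+ and tdT- sdCAMs after LPS, from 0 to 403 in reporter MG, from 960 to 3078 for WT sdCAMs against MG, from 46 to 260 for the WT difference in response and from 349 to 1685 between genotypes. For BLZ945 they ran from 0 to 788 in WT sdCAMs, from 0 to 7 in Ccr2-/- sdCAMs, from 0 to 13 in WT MG, from 0 to 12 in Ccr2-/- MG and from 0 to 1329 for the genotype difference. BLZ945 values that turned ran from -0.020 to 0.44 (Fscn1, WT sdCAMs), from -0.29 to 0.10 (Fscn1, WT MG), from -0.33 to 0.50 (Slc10a6, WT MG), from -0.20 to 0.30 (Slc10a6, Ccr2-/- sdCAMs) and from -0.56 to 0.44 (Plpp1, genotype difference).

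With the mouse as a replicate block, tdT+ against tdT- sdCAMs after LPS gave -0.42, 0.79 and 0.10 for Fscn1, Plpp1 and Slc10a6, and no call of a member changed among the 15 values that could be paired. Counts of all genes called fell from 2242 to 1380 for WT sdCAMs against MG and from 174 to 91 for the WT difference in response.

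Counts of all genes called also moved by over 1.5 times. With DESeq2, no filter and library totals they were 1286, 1284 and 2676 in place of 664 between tdT+ and tdT- sdCAMs after LPS (1352 with 12 libraries; with the columns exchanged, edgeR called 0 in the fits of 6 libraries, of 12 libraries and with the block, with 269, 816 and 261 at an unadjusted p under 0.05), 1584, 1518 and 2886 in place of 664 for LPS in WT sdCAMs (1142 with the IEG mark), and 880, 838 and 2708 in place of 174 for the WT difference in response (433 with the IEG mark). They were 994 and 268 in place of 118 in reporter MG with DESeq2 and no filter, 1158 in place of 2242 for WT sdCAMs against MG with the IEG mark, and 2209 and 569 in place of 1260 between genotypes with DESeq2 and library totals. For BLZ945, DESeq2 and no filter gave 46 and 108 in place of 9 in WT MG (4 on library totals), 27 and 70 in place of 2 in Ccr2-/- MG (1 on library totals), and no filter gave 43, 145 and 35 in place of 0 in WT sdCAMs, Ccr2-/- sdCAMs (1 on library totals and with DESeq2 size factors) and the genotype difference. With 3 mice a group and counts near 0 for Plpp1 and Slc10a6 in several groups, depth limits what can be said below the floor of 3 counts per library.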
